A study of Mus musculus with 8 samples.

Results

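The 39 coding Hox genes of the mouse were followed in MB21 cells, a mouse medulloblastoma line described by the labels as a ptch mutant and grown unattached in medium with B27 supplement. They were chosen by name, as every gene whose symbol is Hoxa, Hoxb, Hoxc or Hoxd followed by a number, and all 39 were found among the 55416 gene identifiers counted. The treated cells, called DS38 here, had been kept for 5 days with 10 uM of DS-1-38, a compound that the series describes as a derivative of benzarone. Their controls, called DMSO, had been kept with the vehicle for the same 5 days, and each group was represented by 4 RNA-seq libraries. By its title, the series belongs to work on benzarone derivatives against Sonic hedgehog medulloblastoma. MB21 is a single line. Nothing in the labels ties the 4 libraries of a condition to separate cultures, so the p-values rest on a spread among 8 libraries that could be technical.

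Hox genes encode homeodomain transcription factors that give cells their position along the head-to-tail axis. They lie in 4 clusters on separate chromosomes, and low-numbered members are expressed further forward in the embryo than high-numbered ones. The cerebellum, in which this tumour arises, forms from the most rostral segment of the hindbrain, which is patterned by Otx2, Gbx2 and the Engrailed genes and lies in front of the Hox-expressing segments. Where Hox genes are off, Polycomb complexes commonly keep their CpG-rich promoters closed, and retinoic acid is a classical signal for opening them.

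Library totals ran from 17142397 to 28476019 counts in DS38 and from 18878556 to 25582159 counts in DMSO, and summed to 87725019 and 87835704 counts, so the depth of the groups was almost equal. DS38 replicate 2 was the deepest library. Granule neuron progenitor and Hedgehog medulloblastoma markers were all detected, and all 10 were kept by the filter on low counts. More genes of any kind had a count in each DS38 library (23253 to 25410) than in each DMSO library (21696 to 22863).

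The Hox clusters were close to silent with and without the compound. All 39 genes together received 16, 31, 17 and 11 counts in DS38 replicates 1 to 4, and 15, 15, 8 and 8 counts in DMSO replicates 1 to 4. Expressed as CPM (counts scaled to the plain library total), the unit of all Hox sums here, this was 0.838 ± 0.241 in DS38 and 0.513 ± 0.118 in DMSO (SD, n = 4 each), and the groups overlapped, since DS38 replicate 4 (0.581) lay below DMSO replicates 1 (0.586) and 2 (0.640). In total 75 counts fell on Hox genes in DS38 and 46 in DMSO, a ratio of 1.63 per unit of depth with an exact 95% interval of 1.12 to 2.41 from counting error alone. Without Hoxd8, 43 counts were left in DS38 and 21 in DMSO, and the lowest DS38 library (0.317 CPM) lay just above the highest DMSO library (0.313). Of all 30932 single genes with a count, 13.4% separated the groups in this direction. No count at all was seen for 19 of the 39 genes. Another 18 genes had between 1 and 9 counts over the 8 libraries, with Hoxb8 and its 6 counts as the highest. Only Hoxd8 and Hoxa7 reached 10. In GENCODE gene models of the earlier build GRCm38, the exons of 16 Hox genes overlap another gene. Of these 16, 6 had a count, against 14 of the 23 others, so a part of the zeros is uncertain. Of 21877 protein-coding genes, 65.5% reached 10 counts and 21.0% had none, against 5.13% and 48.7% of the Hox genes. In bulk RNA, a few cells with active Hox genes and little RNA in many cells cannot be told apart.

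**Figure D1:**
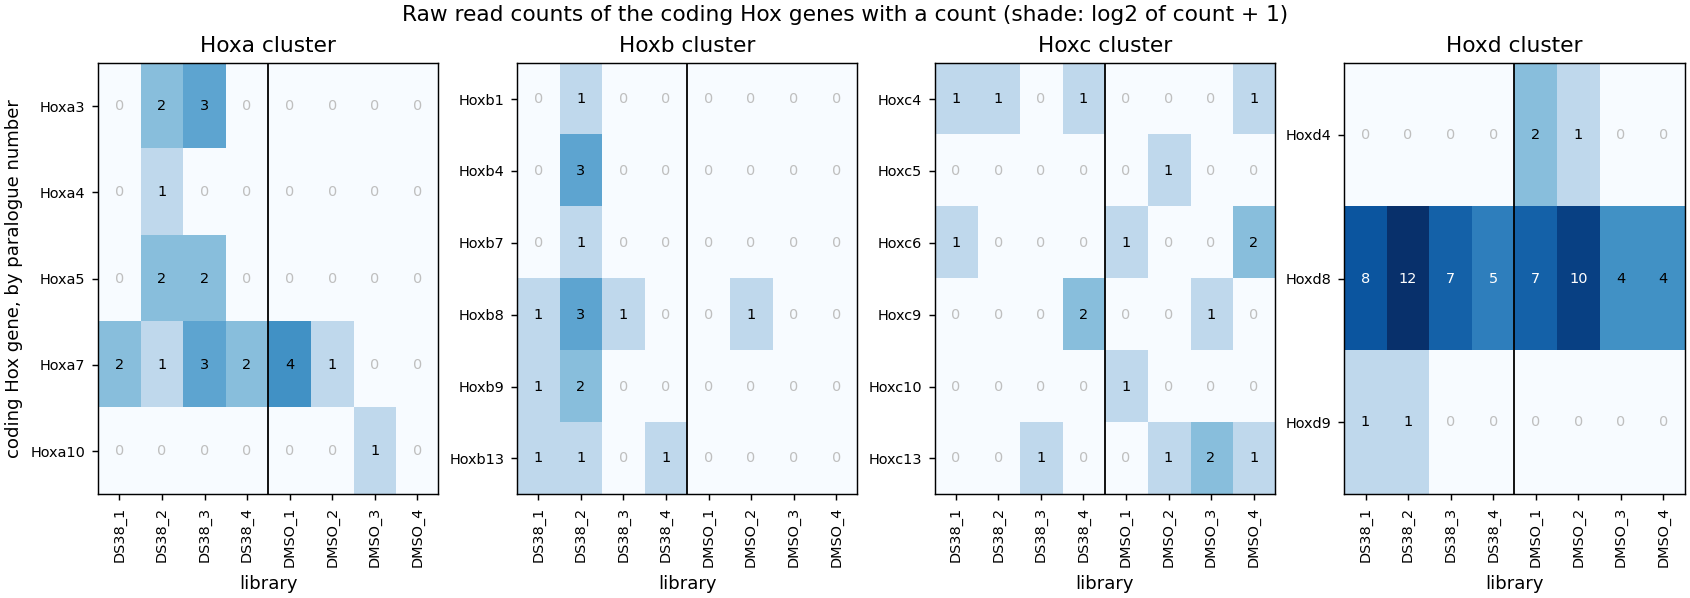
Raw read counts of the 20 coding Hox genes with a count, in rows by cluster and paralogue number, in the 4 DS38 libraries (left of the line in each panel) and the 4 DMSO libraries (right of it), with darker cells for more counts. Hoxd8 is the single row filled in all 8 libraries, and most other cells hold 0.

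A gene with 0 counts may still be transcribed below what these libraries can show. At 3 counts, the limit that a count of 0 allows was 0.0342 CPM over the 4 libraries of either group, and 0.105 to 0.175 in a single DS38 library and 0.117 to 0.159 in a single DMSO library. Such limits, and all intervals on counts given here, cover counting error only, because PCR copies of 1 molecule cannot be recognised. The genes without a count lay in all 4 clusters. They include Hoxa2, which in the mouse patterns the hindbrain just behind the Hox-free segment, and the limb and tail genes Hoxa13 and Hoxd13. The exons of Hoxa2 overlap those of Gm28308 in the earlier annotation, so its count of 0 is uncertain.

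Hoxd8 was the one Hox gene with reads in every library. Its start region is shown beside that of Hoxd10, 1 of the 6 Hoxd genes without a count, so that the most counted Hox gene can be read beside an uncounted one of its cluster. Hoxd10 was chosen after its values were seen, and its exons overlap those of Gm28309 in the earlier annotation, so its count of 0 is uncertain. Each line gives the 250 bases before the annotated start on the plus strand, from RefSeq on GRCm38.p6, at chr2:74704365-74704614 for Hoxd8 and chr2:74691641-74691890 for Hoxd10, with each CG pair in capitals. The submitters' notes list another mouse build, GRCm39, and no coordinate was used to join sequences to counts.
Hoxd8: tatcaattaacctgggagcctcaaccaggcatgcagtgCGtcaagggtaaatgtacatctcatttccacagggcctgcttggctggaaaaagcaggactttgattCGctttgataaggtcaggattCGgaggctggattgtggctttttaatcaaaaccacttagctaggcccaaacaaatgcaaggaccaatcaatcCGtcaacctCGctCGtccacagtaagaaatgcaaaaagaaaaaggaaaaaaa
Hoxd10: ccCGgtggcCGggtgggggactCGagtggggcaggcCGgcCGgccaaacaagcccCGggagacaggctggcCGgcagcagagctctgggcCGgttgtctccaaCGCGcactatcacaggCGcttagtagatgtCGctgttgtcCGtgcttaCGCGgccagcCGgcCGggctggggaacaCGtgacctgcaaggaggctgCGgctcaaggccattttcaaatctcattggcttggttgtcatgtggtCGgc
The window of Hoxd8 held 6 CG pairs and was 44.4% G or C, and that of Hoxd10 held 20 CG pairs and was 65.6% G or C. RefSeq gave 24 such windows for 22 of the 39 genes. They held 2 to 35 CG pairs with a median of 12.5, and 62.5% of them held 10 or more. The pair shown is no contrast between counted and uncounted genes, since the windows of Hoxa9 and Hoxa2, also without a count, held 3 and 6. Among 32851 windows of all genes the median was 6 and 37.8% held 10 or more. CG reads the same on both strands, the pairs do not overlap, and their number says nothing about methylation or binding.

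Hoxd8, a central member of its cluster, had 8, 12, 7 and 5 counts in DS38 replicates 1 to 4, against 7, 10, 4 and 4 counts in DMSO replicates 1 to 4. No DS38 library lay above the highest DMSO library when scaled to the library total, and the groups overlapped. The mean was 0.360 ± 0.0719 CPM in DS38 and 0.278 ± 0.104 in DMSO (SD, n = 4 each), a difference of 0.0815 with p = 0.314 in the exact two-sided permutation test, which cannot go below 0.0286 with 4 against 4. Pooled over libraries, the ratio of DS38 to DMSO was 1.28, with an exact 95% interval of 0.736 to 2.26 from counting error alone. In an edgeR fit without a filter on low counts, its log2 fold change was 0.28 ± 0.46 (SE), with a 95% interval of -0.62 to 1.19 and an adjusted p of 0.708. That interval takes in both lower and higher levels of Hoxd8 in DS38. In GENCODE gene models of the earlier build GRCm38, no exon of Hoxd8 overlapped another gene.

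Levels of different genes were compared as TPM, which scales counts by gene length as well as depth. Hoxd8 stood at 0.484 ± 0.0983 in DS38 and 0.360 ± 0.131 in DMSO (SD, n = 4 each). Over all 8 libraries, 56.5% of protein-coding genes had a higher mean TPM. Hoxa7, the next Hox gene, stood at 0.128 ± 0.0720 TPM in DS38 and 0.0615 ± 0.0916 in DMSO. The groups overlapped for both genes. By the same measure some positional genes of the midbrain and rostral hindbrain were far higher. En2, an Engrailed gene of the midbrain-hindbrain boundary, had 66.1 ± 2.16 TPM in DS38 and 58.3 ± 1.44 in DMSO, and did not pass the test on counts (edgeR adjusted p = 0.192). Otx2, which marks brain in front of the Hox territory and the Atoh1 lineage of the cerebellum, had 41.8 ± 1.79 TPM in DS38 and 35.0 ± 1.47 in DMSO. It passed (log2 fold change 0.15, edgeR adjusted p = 0.0180) but lost the call without a filter, without DS38 replicate 2 or without DMSO replicate 1. Of the 7 positional genes tested, 2 were called higher, Otx2 among them, and 1 lower, where 18.8% of all genes tested were called higher and 20.7% lower, and Pax2 had no count. Irx3, an Iroquois gene of the neural tube, rose (0.78), and its relative Irx2 fell (-0.29). Not all positional genes were high. Gbx2 had 1.13 ± 0.167 TPM in DS38 and 0.770 ± 0.231 in DMSO, nearer to Hoxd8 than to En2 or Otx2, and was not called.

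**Figure D2:**
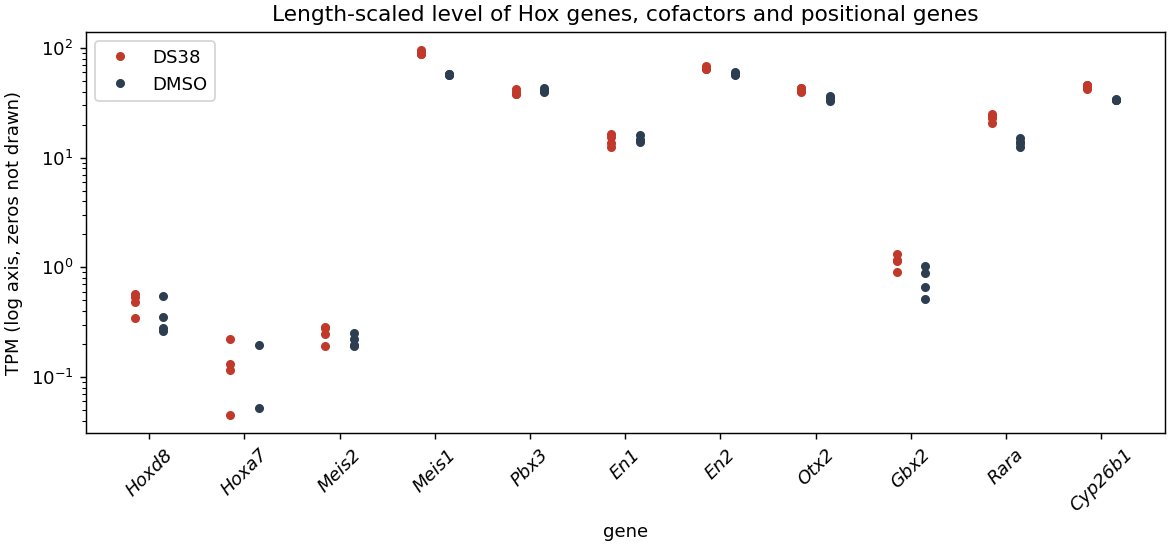
Length-scaled level (TPM, log axis) of the 2 most counted Hox genes, of Hox cofactors, of positional genes of the midbrain and rostral hindbrain and of genes of the retinoic acid pathway, one point per library, DS38 left and DMSO right for each gene; values of 0 are not drawn. Hoxd8 and Hoxa7 lie below 1 TPM in every library, whereas En2 and Otx2 lie above 30.

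Hoxd8 carried 32 of the 34 counts of the Hoxd cluster in DS38 and 25 of 28 in DMSO, or 94.1% in DS38 (exact 95% interval 80.3 to 99.3) and 89.3% in DMSO (71.8 to 97.7). Its neighbours were nearly empty. Hoxd9 had 1 count in each of DS38 replicates 1 and 2 and none in DMSO. Hoxd4, whose exons overlap Hoxd3 and the antisense RNA gene Hoxd3os1 in the earlier annotation, had none in DS38 and 2 and 1 counts in DMSO replicates 1 and 2. The 6 other Hoxd genes had none. The Hoxd sum was 9, 13, 7 and 5 counts in DS38 and 9, 11, 4 and 4 counts in DMSO, or 0.379 ± 0.0819 CPM in DS38 and 0.308 ± 0.128 in DMSO, and the groups overlapped. Without Hoxd8, 2 counts were left in DS38 and 3 in DMSO.

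The Hoxa cluster had 2, 6, 8 and 2 counts in DS38 and 4, 1, 1 and 0 counts in DMSO. Its mean was 0.217 ± 0.175 CPM in DS38 and 0.0630 ± 0.0663 in DMSO (SD, n = 4 each), the groups overlapped, and the pooled ratio was 3.0 with an exact 95% counting interval of 1.14 to 9.24. Replicate 3 held 8 of the 18 DS38 counts, and without it the difference of 0.154 CPM became 0.0712. Hoxa7, a central member that specifies trunk segments in the mouse, supplied 2, 1, 3 and 2 counts in DS38 and 4, 1, 0 and 0 counts in DMSO. Scaled to depth, the highest library was DS38 replicate 3 (0.175 CPM), followed by DMSO replicate 1 (0.156), and the groups overlapped. The difference of 0.0508 CPM gave p = 0.343 in the exact two-sided permutation test. Its exons overlap the antisense gene Hoxaas3 in the earlier annotation, and since the strand setting of the counting is not given in the sources used here, its value is uncertain.

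The rest of the Hoxa counts lay in few genes. Hoxa3, a gene of the pharyngeal arches and posterior hindbrain, had 2 and 3 counts in DS38 replicates 2 and 3, and Hoxa5, known from lung and neck development, had 2 in each of the same libraries. Hoxa4 had 1 count in DS38 replicate 2. None of these genes had a count in DMSO. Hoxa10 had none in DS38 and 1 in DMSO replicate 3.

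The Hoxb cluster had 3, 11, 1 and 1 counts in DS38 and 0, 1, 0 and 0 counts in DMSO. This gave 0.157 ± 0.157 CPM in DS38 and 0.0107 ± 0.0213 in DMSO (SD, n = 4 each). All 4 DS38 libraries lay above all 4 DMSO libraries, the lowest DS38 value being 0.0529 and the highest DMSO value 0.0427, each from a single read. The pooled ratio was 16.0 with an exact 95% counting interval of 2.49 to 672. DS38 replicate 2 alone held 11 of the 16 reads, and without it the difference of 0.146 CPM became 0.0695.

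Within that cluster, Hoxb8 had 1, 3, 1 and 0 counts in DS38 and 1 count in DMSO replicate 2. Hoxb9 had 1 and 2 counts in DS38 replicates 1 and 2. Hoxb13, the most posterior member, had 1 count in each of DS38 replicates 1, 2 and 4. Hoxb4 had 3 counts, and Hoxb1 and Hoxb7 had 1 each, all in DS38 replicate 2. Hoxb8 was thus the only Hoxb gene seen in DMSO.

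The Hoxc cluster was the one with fewer counts in DS38, with 2, 1, 1 and 3 counts in DS38 and 2, 2, 3 and 4 counts in DMSO. The mean was 0.0846 ± 0.0536 CPM in DS38 and 0.131 ± 0.0591 in DMSO (SD, n = 4 each). The groups overlapped, and the pooled ratio of 0.637 had an exact 95% counting interval of 0.209 to 1.80. Hoxc13, known for its role in hair and nails, had 1 count in DS38 replicate 3 and 1, 2 and 1 counts in DMSO replicates 2 to 4. Hoxc4 had 3 counts in DS38 and 1 in DMSO, Hoxc6 had 1 in DS38 and 3 in DMSO, and Hoxc9 had 2 in DS38 and 1 in DMSO. Hoxc5 and Hoxc10, whose exons overlap each other in the earlier annotation, had none in DS38 and 1 count each in DMSO.

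**Figure D3:**
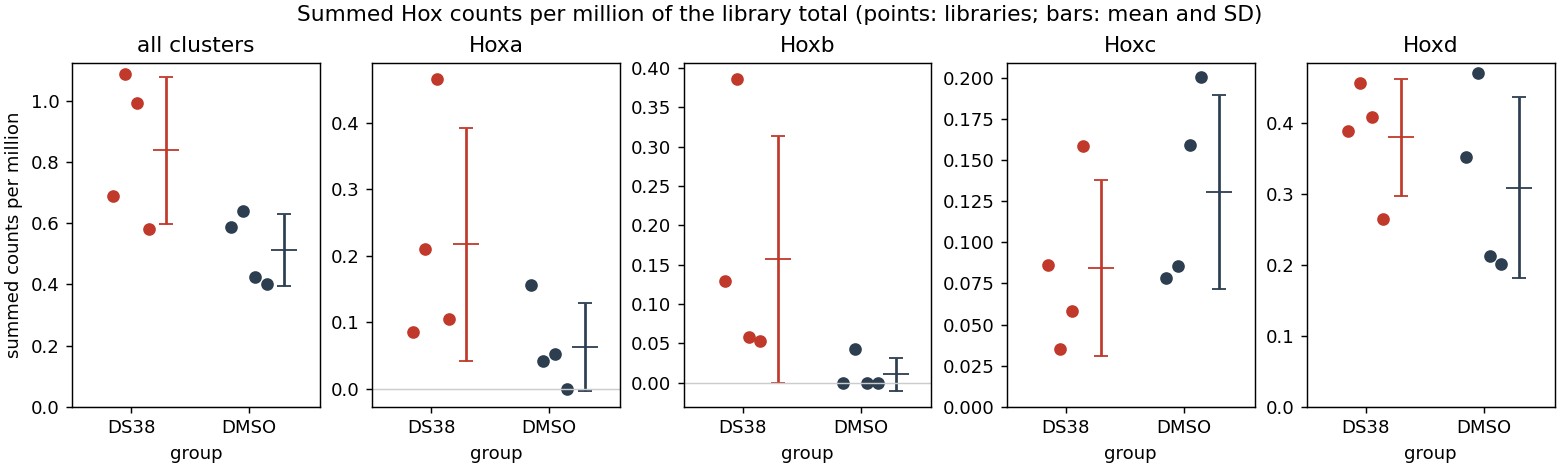
Summed CPM of the library total for all 39 coding Hox genes and for each cluster, one point per library, with the mean and SD of each group of 4 beside the points and a separate vertical scale in each panel. The groups overlap in every panel but Hoxb, where the DMSO libraries hold 1 read in all.

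By paralogue group, members 1 to 3 of all clusters had 6 counts in DS38, all in replicates 2 and 3, and 0 in DMSO. Members 4 to 8, in the middle of the clusters, had 58 counts in DS38 and 39 in DMSO and included Hoxd8 and Hoxa7. Members 9 to 13 had 11 counts in DS38 and 7 in DMSO. The central genes thus held most reads in both groups, but most of these came from 2 genes. Hoxd8 had 32 counts in DS38 and 25 in DMSO, and Hoxa7 had 8 and 5.

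No Hox gene was testable in the main comparison. The filter on low counts kept 15133 genes and 0 of the 39 Hox genes, and 0 were therefore called, where 39.5% of the genes tested were called by edgeR's quasi-likelihood test at a Benjamini-Hochberg adjusted p under 0.05. Without the filter, the same model tested the 20 Hox genes with a count and called 0 of them, against 19.7% of the 30932 genes tested. Of the 20, 2 had an unadjusted p under 0.05, Hoxa3 (0.0269) and Hoxa5 (0.0460), and the smallest adjusted p was 0.112, for Hoxa3. Even Hoxa3, with 5 counts in DS38 and 0 in DMSO, was not called. A call was thus hardly possible for the 18 genes under 10 counts, and the 0 says little of them. DESeq2 called 0, gave an adjusted p to Hoxd8 alone (0.747) and called 31.0% of the genes it gave one. No Hox gene had an unadjusted p under 0.05 in it. The fitted log2 fold change lay above 0 in 14 and below 0 in 6 of the 20, but for genes with a group at 0 this value depends on the prior count and is no size of change.

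Nor did any single Hox gene separate the groups by library. The number with all 4 DS38 libraries above all 4 DMSO libraries was 0, as was the number with all below, against the 13.4% given above and 6.57% below among all genes with a count. Such separation needs a count in all 4 libraries of a group, which only Hoxd8 and Hoxa7 had. For the other Hox genes the 0 was fixed by their few reads, so the shares among all genes are no measure for them. Without DS38 replicate 3, Hoxb13 separated the groups, and without DS38 replicate 4, Hoxb8 did, each on single reads.

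More Hox genes were seen in DS38 than in DMSO. A count was present for 16 genes in DS38 and for 11 in DMSO, 7 of them in both groups, 9 in DS38 alone and 4 in DMSO alone. Per library, 8, 13, 6 and 5 genes had a count in DS38 replicates 1 to 4, and 5, 6, 4 and 4 genes in DMSO replicates 1 to 4. With every library thinned to the smallest total, 13 genes were seen in DS38 and 9 in DMSO. Without DS38 replicate 2, the numbers were 12 in DS38 and 11 in DMSO, but DS38 then had 1 library fewer and less depth. Leaving out 1 DMSO library instead gave 16 in DS38 and 9 or 10 in DMSO.

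This excess was set beside that of all sparse genes, a class of 1 to 9 counts over the 8 libraries chosen after the Hox values were seen. The 18 Hox genes in it had 35 counts in DS38 and 16 in DMSO, a pooled ratio of 2.19 with an exact 95% counting interval of 1.18 to 4.24. By library they summed to 6, 18, 7 and 4 counts in DS38 and to 4 counts in each DMSO library. All 9879 genes of the class had a ratio of 1.71, and the 2953 protein-coding ones among them a ratio of 2.04, both inside the interval of the Hox genes. Of the 18, 9 had reads in DS38 alone and 4 in DMSO alone in the same class, where 1307 and 384 of the 2953 protein-coding genes did so. In the whole class the groups did not overlap, at 203 to 246 CPM in DS38 and 115 to 155 in DMSO. Without DS38 replicate 2, a setting added after the values were seen, the Hox mean was 0.293 CPM in DS38, against 0.185 in DMSO, and the difference became 0.108 in place of 0.193.

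**Figure D4:**
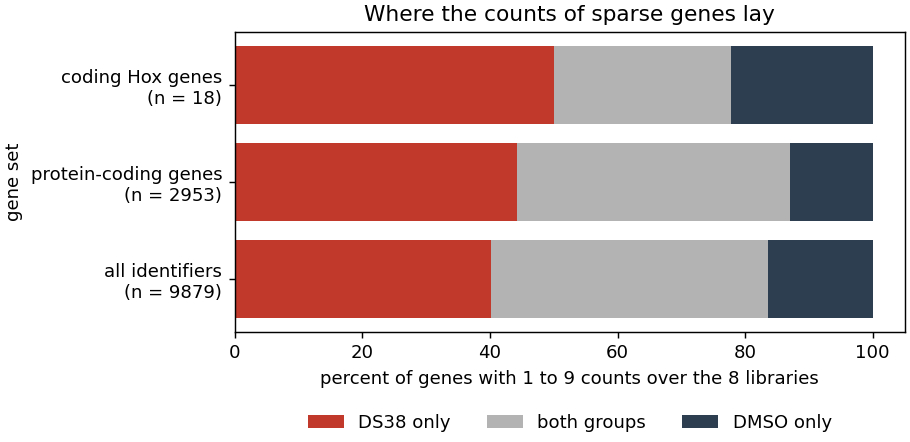
Genes with 1 to 9 counts over the 8 libraries, by where their counts lay, as percent of the class, for the coding Hox genes, protein-coding genes and all identifiers. In each set more genes had reads in DS38 alone than in DMSO alone.

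The noncoding genes of the clusters were quiet too. Of 17 matched, among them Hotair, Hottip and Hotairm1, 15 had no count. Hoxd3os1 had 2 counts in DS38 replicate 3 and Halr1 had 1 in DS38 replicate 4. The list includes miRNA genes such as Mir10a, whose mature products a library of messenger RNA does not measure. Beside the clusters, the homeobox genes Evx1 and Evx2 and the gene Ttll6 had no count either, whereas 14 of 19 flanking genes passed the filter. Of these 14, 5 were called higher and 3 lower, against 18.8% higher and 20.7% lower over all genes tested. The 5 became 2 without DMSO replicate 3, and 3 without DS38 replicate 2 or without a filter. Cbx5, a heterochromatin protein gene near the Hoxc cluster, fell to 868 ± 28.9 CPM in DS38, against 1071 ± 55.1 in DMSO (log2 fold change -0.30, edgeR adjusted p = 3.20e-05). Here and below, levels of genes other than Hox genes and marker sums are CPM of TMM-adjusted library sizes.

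Hox proteins bind DNA with cofactors of the Pbx, Meis and Pknox families, and these genes were expressed. Of the 9, all of them tested, 2 were higher, 2 were lower and 5 were not called, beside 39.5% called over all genes tested. With library totals alone 3 were higher and 0 lower. Among the calls, Pbx4 lost its own in 6 of 15 alternatives, which left 1 gene higher: DESeq2, and leaving out DS38 replicate 2 or 3 or DMSO replicate 1, 3 or 4. Their median log2 fold change was -0.03, beside -0.01 over all genes tested. Meis1 rose to 253 ± 2.18 CPM in DS38, against 173 ± 1.19 in DMSO (edgeR adjusted p = 9.09e-10, log2 fold change 0.55 ± 0.035 SE).

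Of 31 Polycomb genes, which repress Hox clusters, 11 fell, 1 rose and 19 did not pass, whereas 7 fell and 5 rose when library totals alone set the scale. The number called, 12 of 31, is close to the 39.5% called over all genes tested, but its split is not. Over all genes tested, 20.7% were called lower and 18.8% higher, against 11 and 1 of these 31. The median log2 fold change was -0.08. Phf19, an accessory subunit of the H3K27 methyltransferase complex, fell to 2.04 ± 0.253 CPM in DS38, against 4.06 ± 0.400 in DMSO (log2 fold change -0.98). Rbbp7, a histone-binding subunit gene, and the ubiquitin ligase gene Rnf2 fell too, with log2 fold changes of -0.35 and -0.33. Of 12 Trithorax and H3K27 demethylase genes, which oppose them, 1 was called higher and 1 lower, or 4 and 1 with library totals alone. The higher one, Kmt2b, lost its call in 6 of 15 alternatives, DESeq2 and the replicate block among them. Whether these changes bear on the Hox counts was not tested.

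Retinoic acid genes were split. Only 9 of 17 could be tested, of which 3 rose and 3 fell, beside 39.5% called over all genes tested, with a median log2 fold change of 0.05. Rara, a retinoic acid receptor gene, rose to 26.9 ± 1.52 CPM in DS38, against 17.2 ± 1.27 in DMSO (log2 fold change 0.65, edgeR adjusted p = 5.73e-07), and Cyp26b1, whose enzyme degrades retinoic acid, rose as well (0.28). Dhrs3, a retinaldehyde reductase gene, fell (-0.85). Among upstream regulators of Hox genes, Cdx1, Cdx2, Cdx4 and Wnt3a had no count. Egr2, the hindbrain gene upstream of Hoxa2 and Hoxb2, fell (-0.67), and Gdf11 and Fgf8 did not pass, although Gdf11 did with library totals alone.

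Near-silence was less general among other homeobox genes. Of 57 developmental homeobox genes outside the clusters, 27 reached 10 counts and 11 had none, against 2 and 19 of the 39 Hox genes. Of the 21 tested, 4 rose and 4 fell, or 4 and 2 with library totals alone, and 8 of 21 is near the 39.5% called over all genes tested. Lhx1, a LIM homeobox gene, had 144 ± 6.65 CPM in DS38 and 116 ± 2.67 in DMSO (log2 fold change 0.32, edgeR adjusted p = 1.00e-05).

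Cell types in which Hox genes are active were looked for by their markers. Mesenchyme markers summed to 61.8 to 65.1 CPM of the plain total in DS38 and 74.9 to 80.8 in DMSO, with Twist2 at 0. Most of each sum came from Pdgfra alone (51.1 CPM in DS38 and 73.3 in DMSO, of TMM-adjusted library sizes). Of 6 tested, Prrx1 (1.24) and Col1a1 (1.81) rose on the log2 scale and Pdgfra fell (-0.52). Over all genes tested, 18.8% were called higher and 20.7% lower, shares that also apply to the marker lists below. The median log2 fold change of the 6 was 0.56, so the lower sum in DS38 does not describe the list. Col1a1 was low in both groups, at 0.798 CPM in DS38 and 0.233 in DMSO. Neural crest and sensory neuron markers summed to 39.4 to 46.8 CPM in DS38 and 38.2 to 41.3 in DMSO, with Mnx1 at 0. Of 3 tested, Prph (1.99) and Isl1 (0.41) rose and P2rx3 fell (-2.45). Microglia and blood markers summed to 1.55 to 2.00 CPM in DS38 and 0.848 to 1.5 in DMSO, endothelium markers to 1.47 to 1.81 in DS38 and 0.782 to 1.75 in DMSO, and glial markers to 5.55 to 6.36 in DS38 and 3.41 to 4.89 in DMSO. Of 3 glial markers tested, Gfap alone was called and rose (0.75), at 3.07 CPM in DS38 and 1.83 in DMSO. Cd68 and Cdh5, the only microglia and endothelium markers tested, were not called. The part of such cells in the Hox counts was not tested.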

How the data were processed

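RNA sequencing measured 8 MB21 samples, 4 DS38 and 4 DMSO, grouped by their labels. The authors deposited whole-number read counts per gene, not normalized, with each gene's length. Per the submitters' processing notes, the tools were edgeR, featureCounts, R 4.1.0, STAR 2.7.9a and Subread 2.0.3, and the builds GRCm39 and GRCh38.p13 are listed without their role. How strand and multiply matching reads were handled is not given in the sources used here, so members sharing exons with another gene (16 of 39) are uncertain. Of 55416 identifiers, 52083 matched a symbol in a GENCODE annotation of GRCm38. Names and exon overlaps came from it.

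Members were summed as raw counts and as CPM of the plain library total. The test across genes was edgeR 4.0.16 under R 4.3.3 (robust quasi-likelihood, TMM factors of 0.975 to 1.03, filterByExpr minimum of 10 counts, Benjamini-Hochberg over 15133 genes). Fits were tested on simulated data, with changes put only into genes that had more counts than any Hox gene. That test therefore does not cover the depth of the Hox genes. Alternatives were DESeq2 1.42.0, its size factors, library totals alone, other filters, thinning, the replicate block and leaving out each library. TPM used the deposited lengths. Exact tests used SciPy 1.17.1. Every Hox gene with at least 10 counts, and up to 4 genes with the smallest p per context list, could be named, and other members are named by count. Hoxd10 and Gbx2 were chosen after their values were seen. Some genes of these lists are not reported here. The members and lists were chosen with earlier results of these data known. No library pair of a group agreed within sampling noise (chi-square per degree of freedom at least 3.98). The DS38 libraries were not evenly spaced. Replicates 1 and 2 (4.29) and replicates 3 and 4 (3.98) lay closer than the other DS38 pairs (10.5 to 18.5), whereas DMSO pairs ran from 4.25 to 7.59.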

Additional observations from a re-analysis of the deposited data

Results flagged for a closer look

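A library that stood far from the 3 others of its group was sought in 78 groups of values, and 5 were found, where chance flags about 1 in 20. In the Hoxb cluster, DMSO replicate 2 held 0.0427 CPM and the other DMSO libraries 0, a gap made by 1 read. Rara was lowest in DS38 replicate 4 at 24.7 CPM, against 27.5 to 27.9 in the other DS38 libraries. Otx2 was highest in DS38 replicate 2 at 48.5 CPM, against 46.2 to 46.5. Lhx9 was highest in DS38 replicate 1 at 7.45 CPM, against 7.08 to 7.12. Lhx1 was lowest in DMSO replicate 2 at 112 CPM, against 117 in the others.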

How the results depend on the processing

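No Hox gene passed the filter, so a count of 0 calls in filtered fits was fixed in advance and says nothing of stability. Without a filter, 0 were called with all libraries, with each left out in turn and with the replicate number as a block. With so few reads a call was hardly possible for most Hox genes, so this 0 too says little of stability. The sum of all 39 genes stayed higher in DS38 under every alternative run. The difference was 0.242 to 0.411 CPM when a library was left out, and 0.277 to 0.330 with thinning or another scaling. With the set of genes changed, it was 0.244 without Hoxd8 and 0.367 with the noncoding genes added. The Hoxc difference of -0.0462 went to 1.1e-05 after thinning, and that of Hoxd to -0.0107 without Hoxd8. Leaving out a library moved the Hoxa difference between 0.0712 and 0.198, Hoxb between 0.0695 and 0.181, Hoxc between -0.0708 and -0.0229, and Hoxd between 0.0349 and 0.125. The number of Hox genes wholly above DMSO ranged from 0 to 1 in the same settings. Over the context lists, 19 genes rose and 26 fell, against 29 and 16 with library totals alone, a scaling under which 64.3% of all called genes rose in place of 47.5%. The call of Otx2, counted among the genes that rose, was lost without a filter, without DS38 replicate 2 and without DMSO replicate 1. Whether the replicate numbers pair the samples is not known, and 4 libraries per group cannot decide it. Deviations from the group mean correlated at -0.0816 to 0.331 between same-numbered libraries, and at -0.247 to 0.187 between the others. Under the replicate block 2546 genes rose and 3048 fell, in place of 2840 and 3140. Depth limits the Hox values, many of which rest on 1 read.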
